A study of Mus musculus with 6 samples.

Results

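The genes that encode the proteasome were examined in testicular germ cells of Mgat1 cKO and control mice. Members were all genes whose symbol is Psma, Psmb, Psmc, Psmd, Psme, Psmf or Psmg followed by a digit, which gave 49 of the 23152 genes measured, on 576 of 233753 probe sets. Of these, 48 encode subunits, activators, an inhibitor or assembly chaperones of the proteasome, and Psmc3ip, which encodes the meiotic recombination protein HOP2, was matched by its symbol only. All 49 symbols are current in the RefSeq gene table. RNA came from germ cell preparations of mice of the FVB strain at 23 days post-partum (dpp). The mutant group, Mgat1 cKO, was Mgat1[F/F]:Stra8-iCre, in which the iCre recombinase is driven by the Stra8 promoter in spermatogonia and deletes the floxed gene for MGAT1, the transferase that starts complex N-glycan synthesis. The control group was Mgat1[F/F], so both groups carried the floxed alleles and only the mutant carried iCre. Each genotype was measured on 3 Mouse Gene 2.0 ST arrays loaded with aliquots of 1 RNA pool from 6 mice. The spread between arrays, and every p-value, therefore covers aliquots of a pool and not the variation between mice, and genotype and pool cannot be told apart.

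The 26S proteasome degrades proteins that carry ubiquitin chains. Its barrel-shaped core has outer rings of alpha subunits and inner rings of beta subunits, some of which are proteases, and it is capped by a regulatory particle with a base of ATPases and a lid that removes ubiquitin. In the testis, germ cells use special forms: the alpha subunit encoded by Psma8 can take the place of that encoded by Psma7, and the activator PA200, encoded by Psme4, takes part in the loss of histones as sperm chromatin is repacked. Interferon and immune cells bring in other catalytic subunits (Psmb8, Psmb9 and Psmb10) and the activator PA28 (Psme1 and Psme2).

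Proteasome genes differed little between Mgat1 cKO and control germ cells. Psmf1, the gene of the proteasome regulator PI31, was higher in Mgat1 cKO cells, and Psme1, the gene of the alpha subunit of the activator PA28, was lower. Both differences were under 1.5-fold, and 0 members passed the threshold of over 2-fold, against 2.57% of all genes. At an adjusted p under 0.05, the 2 called members made up 4.08% of 49, against 8.41% of all genes. By direction, 1 member was higher, against 6.07% of all genes, and 1 was lower, against 2.35%. At an unadjusted p under 0.05 there were 13 members (26.5%), against 24.1% of all genes, with 4 higher (background 9.55%) and 9 lower (background 14.5%).

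Values are log2 signals averaged over the probe sets of a gene, and differences are Mgat1 cKO minus control on that scale. Differences of the 49 members ran from -0.33 to 0.28 with a median of -0.048, and the median over all genes was -0.053. A difference below 0 was found for 32 members (65.3%), against 64.5% of all genes, so the lean of the members to lower values was that of the table as a whole. In 23 members (46.9%) the 3 Mgat1 cKO arrays lay wholly above (8) or wholly below (15) the 3 control arrays, against 31.3% of all genes (11.2% above and 20.1% below). The median SE of a difference was 0.073 for the members and 0.081 for all genes. The 95% interval of the difference stayed within 1.5-fold for 48 of 49 members (98%), against 91% of all genes, and the exception was Psmb10. Members were brighter, with a median signal per array of 8.57 to 8.66, against 6.21 to 6.27 over all genes. All genes were not matched to the members for brightness or number of probe sets, whose part in these shares was not tested. Correlations between Mgat1 cKO and control arrays over the 49 members were 0.992 to 0.995, against 0.995 to 0.997 within Mgat1 cKO and 0.996 to 0.997 within control, where points share the probe sets and so their brightness.

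**Figure D1:**
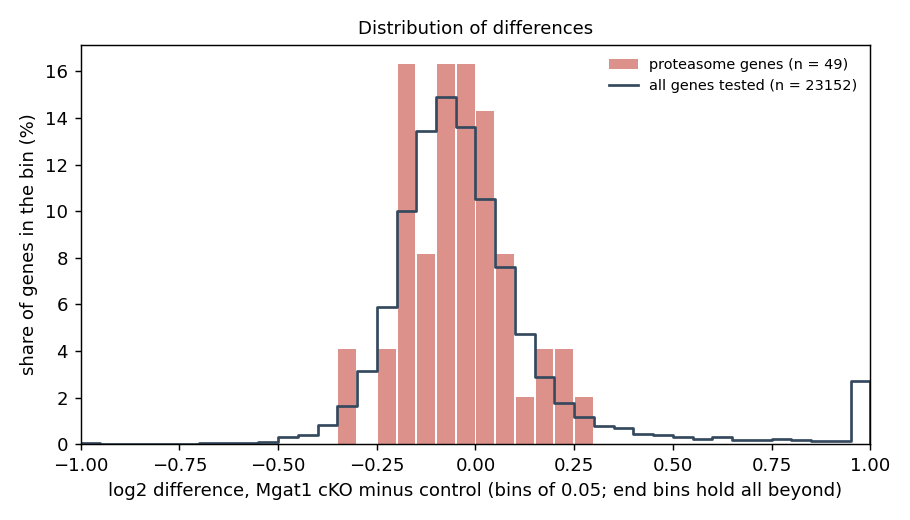
Share of genes (y axis, %) by the log2 difference, Mgat1 cKO minus control (x axis, bins of 0.05 from -1 to 1, the end bins also holding all genes beyond), for the 49 proteasome genes (bars) and all 23152 genes (line). The members lie between -0.33 and 0.28, around medians of -0.048 for the members and -0.053 for all genes.

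The targeted gene did not separate the genotypes on these arrays. Mgat1 had 6.35, 6.10 and 6.45 in Mgat1 cKO cells and 6.17, 6.44 and 6.33 in control cells over its 12 probe sets. The groups overlapped, with a difference of -0.02 (SE 0.11, adjusted p = 0.94), so this gene mean gives no check of the labels. Which of its probe sets lie in the deleted part was not analysed here.

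Marker genes of several cell types differed between the genotypes. Markers of round spermatids were higher in Mgat1 cKO cells for 9 of 10 genes, with summed linear signals of 3782 to 4050 in Mgat1 cKO arrays and 1770 to 1824 in control arrays. Markers of condensing spermatids were higher for 8 of 8, at 4240 to 4372 against 825 to 856 in control. Of 10 spermatocyte markers 1 was higher (Pgk2, 0.55), at 11284 to 11823 in Mgat1 cKO arrays and 11674 to 12105 in control arrays. Of 8 spermatogonial markers 0 were called at the adjusted p of limma, at 1240 to 1277 in Mgat1 cKO arrays and 1316 to 1424 in control arrays. At an unadjusted p of limma under 0.05, 2 of them were lower, as were 14.5% of all genes. Somatic markers were lower for 1 of 10 in Sertoli cells, at 5685 to 5803 against 6041 to 6189 in control arrays. Leydig markers were lower for 2 of 5, at 1944 to 2032 against 2232 to 2322. Of the other Leydig markers, Insl3 (0.80 on 1 probe set) and Hsd3b1 (0.084) lay above 0 with overlapping groups and without a call. Peritubular myoid and stromal markers were lower for 3 of 8, at 4690 to 4798 against 5376 to 5471. Leukocyte markers were lower for 5 of 12, at 998 to 1048 in Mgat1 cKO arrays and 1174 to 1211 in control arrays, and epididymal markers for 6 of 8, at 672 to 716 in Mgat1 cKO arrays and 896 to 943 in control arrays. No marker was listed at 0, but 5 epididymal, 2 leukocyte and 1 stromal marker had mean signals in the range of the dimmest 25% of probe sets. In such bulk samples fewer cells of a type and less RNA per cell cannot be told apart, and the part of these shifts in any difference below was not tested.

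The alpha ring forms the gate of the core. Of its 8 genes 0 were called, against the 8.41% of all genes, and differences ran from -0.19 (Psma1) to 0.17 (Psma6) with a median of -0.060. Psma6, which encodes alpha1, had 9.38, 9.08 and 9.14 in Mgat1 cKO cells and 9.01, 9.06 and 8.99 in control cells. All Mgat1 cKO arrays were above control, by 0.02 at the nearest arrays, and array 1 of Mgat1 cKO stood highest (difference 0.17, SE 0.088, adjusted p = 0.27). Psma8, the germ cell form of alpha4 and a gene of meiotic and later germ cells, had 9.74, 9.67 and 9.70 in Mgat1 cKO cells and 9.72, 9.81 and 9.82 in control cells. The groups overlapped, with a difference of -0.081 and a 95% interval of -0.22 to 0.061 (adjusted p = 0.46). Psma7, which encodes the general alpha4, had 8.32, 8.58 and 8.41 in Mgat1 cKO cells and 8.53, 8.40 and 8.42 in control cells. Its difference was -0.017 with an interval of -0.21 to 0.18 (adjusted p = 0.92).

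Of the 7 constitutive beta subunits 0 were called, and differences ran from -0.23 to 0.017 with a median of -0.032. Psmb2, which encodes the structural subunit beta4, had 8.69, 8.56 and 8.58 in Mgat1 cKO cells and 8.86, 8.92 and 8.73 in control cells. The Mgat1 cKO arrays were all below control, yet the difference of -0.23 (SE 0.073) did not pass the test (adjusted p = 0.11) and took the other sign when the median of its probe sets was used (0.083). Psmb1, which encodes beta6, had 9.34, 9.19 and 9.25 in Mgat1 cKO cells and 9.50, 9.47 and 9.39 in control cells. Here too the groups were apart without passing the test (difference -0.19, SE 0.068, adjusted p = 0.14). The 3 subunits with protease sites differed by -0.026 (Psmb5, chymotrypsin-like), -0.032 (Psmb6, caspase-like) and 0.017 (Psmb7, trypsin-like), with overlapping groups and intervals within -0.25 and 0.18.

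No immune form of those 3 proteases was called, and only Psmb10 kept the groups apart. Their 95% intervals overlapped, and a difference between the forms was not tested. Psmb10, which encodes beta2i, had 6.29, 6.43 and 6.18 in Mgat1 cKO cells and 6.56, 6.45 and 6.90 in control cells. Its difference of -0.33 was the lowest of all members, but the highest Mgat1 cKO array lay only 0.02 under the lowest control array and the interval was wide (-0.62 to -0.046, adjusted p = 0.16). Psmb8, which encodes beta5i, had 5.55, 5.64 and 5.70 in Mgat1 cKO cells and 5.54, 5.72 and 5.53 in control cells (difference 0.032, SE 0.078, adjusted p = 0.83). Psmb9, which encodes beta1i, had 5.20, 5.32 and 5.48 in Mgat1 cKO cells and 5.08, 5.33 and 5.32 in control cells (difference 0.089, SE 0.099, adjusted p = 0.62). Both genes overlapped between the groups, and 4 of 11 probe sets of Psmb8 and 6 of 10 of Psmb9 were dim, that is, in the lowest 25% of all probe sets. With the dim ones left out, and for Psmb8 also with arrays centred, both differences changed sign and stayed under 0.05 in size. Psmb11, the thymus form beta5t, had 4.66, 4.84 and 4.60 in Mgat1 cKO cells and 4.58, 4.63 and 4.64 in control cells, from 2 probe sets of which 1 was dim (difference 0.087, adjusted p = 0.53).

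**Figure D2:**
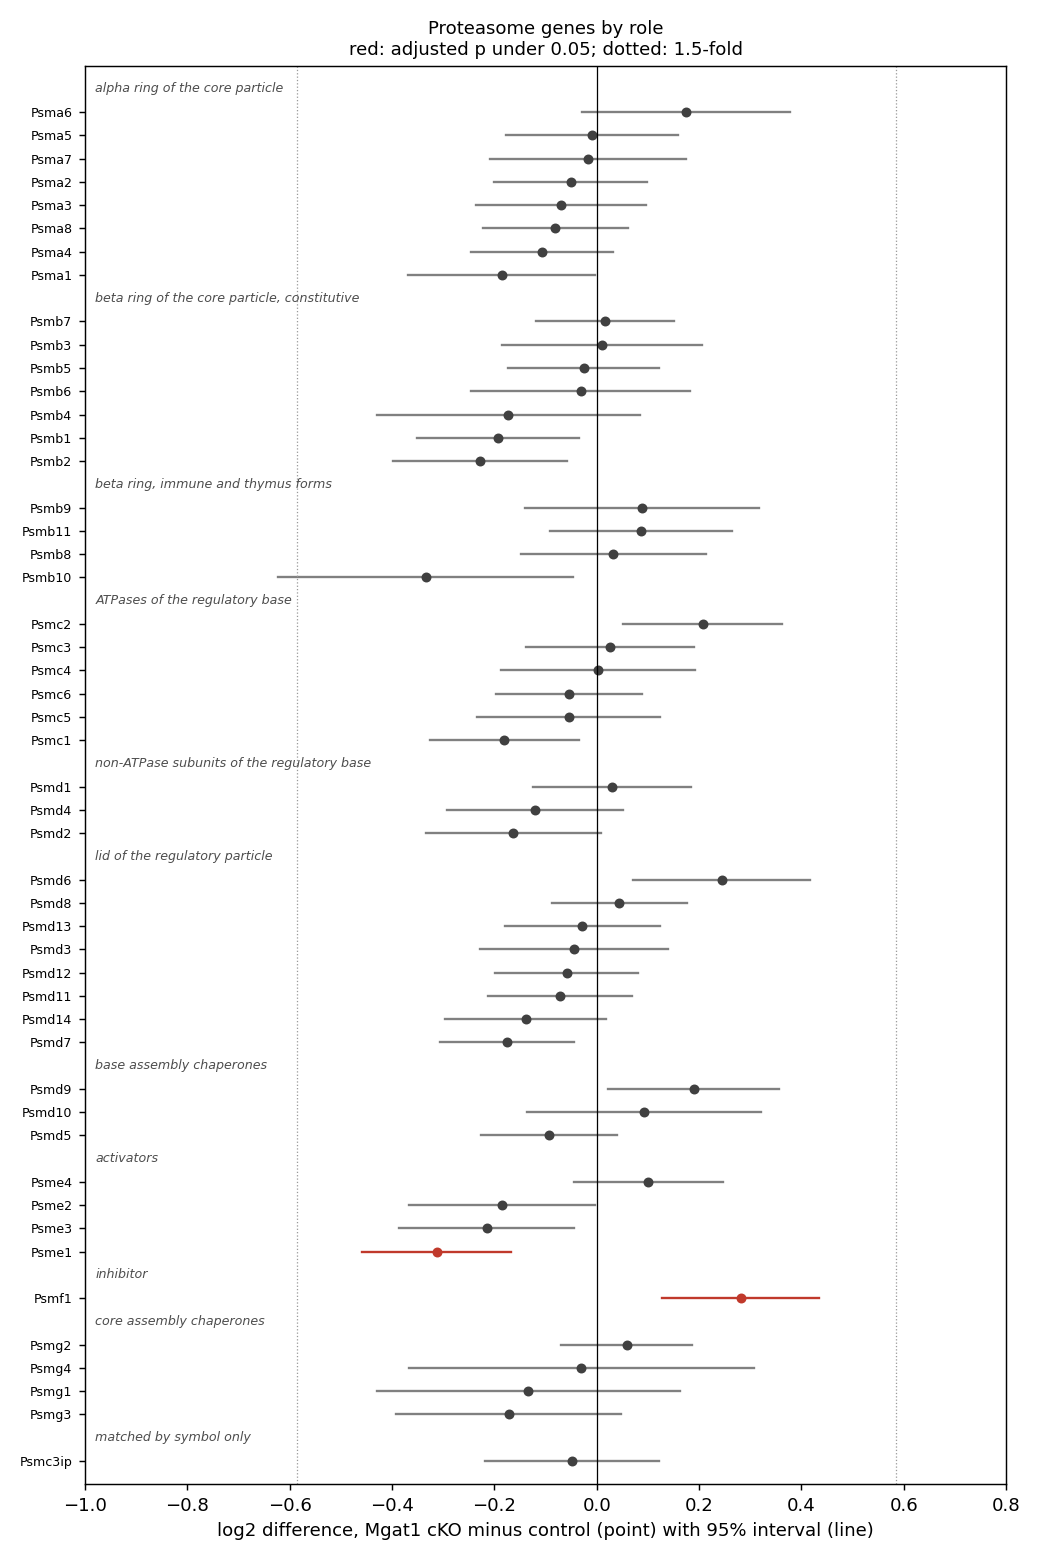
Log2 difference, Mgat1 cKO minus control (x axis), of the 49 members by role (y axis), as point with 95% interval, with called members in red and dotted lines at 1.5-fold. Only the intervals of 2 called members are red, Psme1 at -0.31 and Psmf1 at 0.28, and only that of Psmb10 crosses a dotted line.

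In the base of the regulatory particle, 0 of 6 ATPase genes and 0 of 3 other subunit genes were called. Psmc2, which encodes the ATPase Rpt1, had 8.56, 8.51 and 8.64 in Mgat1 cKO cells and 8.31, 8.44 and 8.33 in control cells. All Mgat1 cKO arrays were above control (difference 0.21, SE 0.067, adjusted p = 0.11). Psmc1, the gene of the ATPase Rpt2, lay the other way, at -0.18 (SE 0.063, adjusted p = 0.13) with all arrays below control and a difference below 0 in 10 of its 10 probe sets. The other 4 ATPase genes overlapped between the groups and differed by -0.055 to 0.027. Psmd2 and Psmd4, which encode the scaffold Rpn1 and the ubiquitin receptor Rpn10, had all Mgat1 cKO arrays below control with differences of -0.16 and -0.12, and Psmd1 (Rpn2) overlapped at 0.030.

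The lid showed a like split among its 8 genes, of which 0 were called. Psmd6, which encodes Rpn7, had 9.15, 8.91 and 9.01 in Mgat1 cKO cells and 8.76, 8.79 and 8.79 in control cells. The groups were apart, and the difference of 0.24 (SE 0.075) had the lowest adjusted p of the members that were not called (0.094). Psmd7, the gene of Rpn8, which pairs with the deubiquitinase Rpn11, had 10.38, 10.39 and 10.38 in Mgat1 cKO cells and 10.55, 10.54 and 10.59 in control cells. Its arrays hardly varied within a genotype, and the difference was -0.18 (SE 0.057, adjusted p = 0.11), below 0 in 7 of 7 probe sets. Psmd7 was called lower with analysis of variance, with an intensity trend and with arrays centred. Psmd14, the gene of Rpn11 itself, differed by -0.14 (adjusted p = 0.26) with all Mgat1 cKO arrays below control. Psmd8, which encodes Rpn12, had 11.16, 11.20 and 11.14 in Mgat1 cKO cells and 11.11, 11.14 and 11.12 in control cells. The groups were apart by less than the printed precision, and the difference was 0.044 with an interval of -0.088 to 0.18 (adjusted p = 0.68).

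Assembly chaperones build the core and the base. Of the 3 base chaperones 0 were called. Psmd9, which encodes p27, had 7.52, 7.51 and 7.61 in Mgat1 cKO cells and 7.28, 7.33 and 7.47 in control cells, so the groups were apart without passing the test (difference 0.19, SE 0.072, adjusted p = 0.16). Psmd10 (gankyrin) overlapped at 0.092, and Psmd5 (S5b) was below control on all arrays at -0.094. Of the 4 core chaperones Psmg1 to Psmg4, 0 were called, with differences of -0.17 to 0.058. Psmg4 (PAC4) had the largest SE of all members (0.15), with means of 4.98 ± 0.24 in Mgat1 cKO cells and 5.01 ± 0.22 in control cells (SD, n = 3 each). Psmc3ip, the meiotic recombination gene, overlapped between the groups (difference -0.048, SE 0.073, adjusted p = 0.73).

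The activators, which open the gate of the core, held 1 of the 2 called members. Psme1 (PA28 alpha) had 7.41, 7.32 and 7.37 in Mgat1 cKO cells and 7.74, 7.63 and 7.67 in control cells. The highest Mgat1 cKO array lay 0.22 below the lowest control array, and means of 7.36 ± 0.046 and 7.68 ± 0.056 (SD, n = 3 each) gave a difference of -0.31 (SE 0.063, 0.805-fold, adjusted p = 0.020 from limma). Of its 14 probe sets 12 differed by less than 0, 6 had all Mgat1 cKO arrays below control and 1 had all above. For comparison, 19.2% of all probe sets kept the groups apart in either direction, and 64.5% of all genes differed by less than 0. Probe sets of 1 gene share their target, which also holds for the counts of Psmc1 and Psmd7 above. Its partner Psme2 (PA28 beta) had 5.87, 5.88 and 5.73 in Mgat1 cKO cells and 6.02, 5.91 and 6.12 in control cells. These arrays were apart by 0.03 on 3 probe sets, and the difference of -0.19 did not pass the test (SE 0.078, adjusted p = 0.20). Psme3, which encodes PA28 gamma, the nuclear activator, had 8.15, 8.04 and 8.07 in Mgat1 cKO cells and 8.30, 8.41 and 8.20 in control cells. It too was below control on every array without passing the test (difference -0.22, SE 0.074, adjusted p = 0.13).

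Psme4 (PA200) lay the other way from the PA28 genes. It had 10.46, 10.39 and 10.51 in Mgat1 cKO cells and 10.31, 10.38 and 10.38 in control cells. All Mgat1 cKO arrays were above control, but by as little as 0.01, and the difference was 0.10 (SE 0.063, interval -0.045 to 0.25, adjusted p = 0.37). Over its 44 probe sets, the most of any member, 35 differed by more than 0, and 16 had all Mgat1 cKO arrays above control while 0 had all below. Of all probe sets, 19.2% kept the groups apart in either direction, and probe sets of 1 gene share their target. Psme2b was not analysed here, since no probe set carries its symbol alone.

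Psmf1 (PI31) had 8.75, 8.66 and 8.68 in Mgat1 cKO cells and 8.50, 8.36 and 8.38 in control cells. The lowest Mgat1 cKO array lay 0.16 above the highest control array, and means of 8.70 ± 0.045 and 8.41 ± 0.076 (SD, n = 3 each) gave a difference of 0.28 (SE 0.066, 1.22-fold, adjusted p = 0.039 from limma). PI31 was named for its inhibition of the core in a purified system, and in flies and mice it is also known to help move proteasomes along axons. Of its 10 probe sets 6 differed by more than 0, and with their median in place of the mean the difference was 0.075 (adjusted p = 0.74).

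Both calls were sensitive to the processing. Leaving out any 1 of the 6 arrays ended the call of Psmf1 (difference 0.25 to 0.33, adjusted p = 0.051 to 0.13), and leaving out control array 1 or 3 or Mgat1 cKO array 2 or 3 ended that of Psme1 (over all 6 omissions, difference -0.34 to -0.28, adjusted p = 0.041 to 0.085). The call of Psmf1 also ended with analysis of variance (adjusted p = 0.068) and with arrays centred (0.23, adjusted p = 0.061), and that of Psme1 with the median of its probe sets (-0.43, adjusted p = 0.12).

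**Figure D3:**
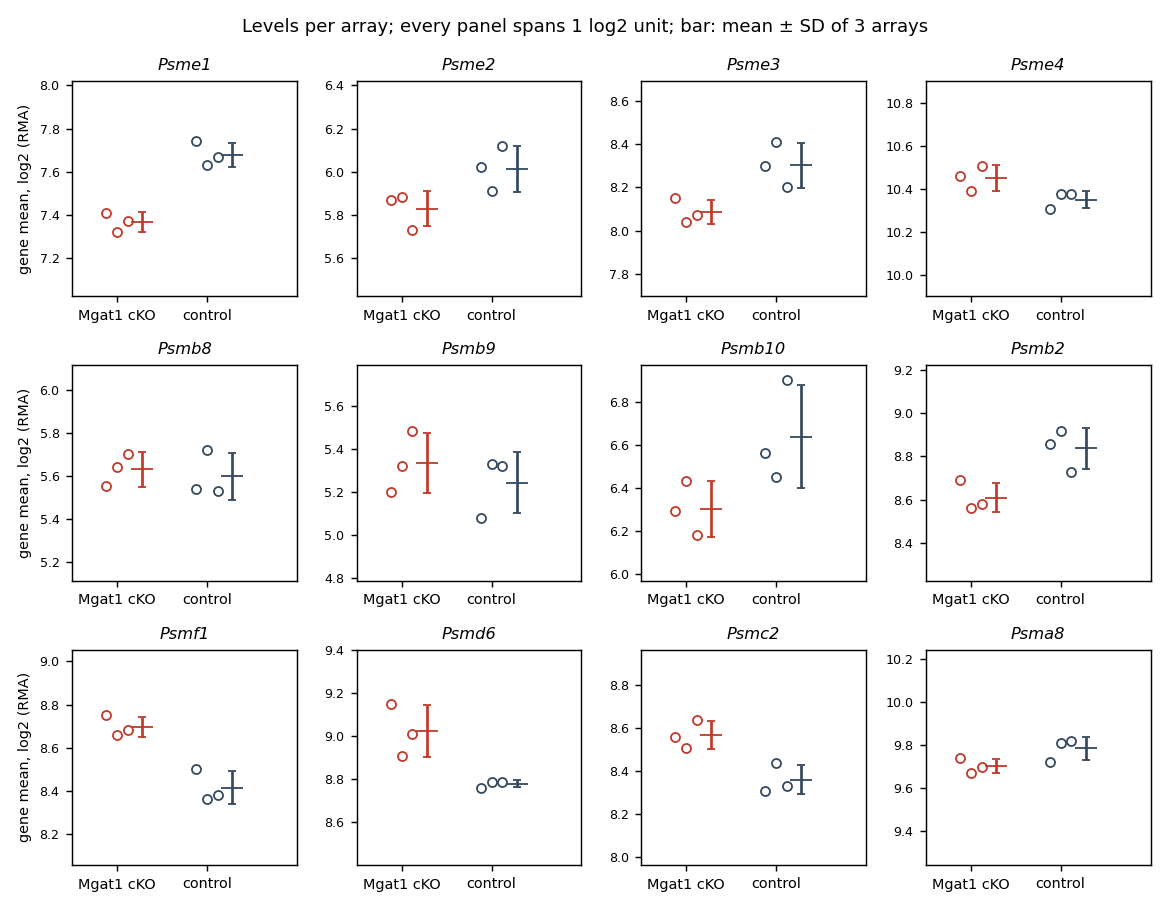
Gene mean log2 signal (y axis, each panel spanning 1 log2 unit) of 12 proteasome genes on the 3 Mgat1 cKO arrays (left, red) and the 3 control arrays (right, dark), with mean ± SD as bars. Psme1 sits 0.31 lower and Psmf1 0.28 higher in Mgat1 cKO, while Psmb8, Psmb9 and Psma8 overlap.

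Promoters were read for motifs of factors that are known to act on proteasome genes. RefSeq windows from 250 bases before to 50 after a transcription start (300 bases, GRCm38.p6) were matched by symbol for 41 of 49 members, with 44 windows. The windows of Psma8, Psmb1, Psmb2, Psmb7, Psmc3, Psmd3, Psmd7 and Psmg2 were not analysed here. On either strand, TGACNNNGC, the core of the antioxidant response element that the factors NFE2L1 and NFE2L2 bind, was in 6 of 44 windows (13.6%), against 12.4% of 32851 windows of all genes. CCAAT, bound by NF-Y, was in 15 windows (34.1%), against 37.4%, and TGACGTCA, the cyclic AMP response element, was in 0 of 44, against 1.79%. By their letters TGACNNNGC and TGACGTCA cannot overlap, so their counts share no site. The 6 genes with TGACNNNGC were Psmb5, Psmb6, Psmc6, Psmd9, Psmd12 and Psme4. The windows of the 2 called genes, which hold none of these letters, and of Psmb6 and Psme4, as examples that hold TGACNNNGC, follow in the direction of transcription. Capitals mark the match, which lies on the printed strand of Psmb6 and on the opposite strand of Psme4, where its reverse complement is printed.
Psme1, chr14:55578244-55578543, plus strand: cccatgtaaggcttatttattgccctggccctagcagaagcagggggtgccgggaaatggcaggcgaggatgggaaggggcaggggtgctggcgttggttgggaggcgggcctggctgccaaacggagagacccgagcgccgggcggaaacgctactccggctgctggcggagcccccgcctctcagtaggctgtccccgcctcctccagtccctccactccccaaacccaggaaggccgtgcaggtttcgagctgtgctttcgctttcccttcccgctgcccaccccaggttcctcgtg
Psmf1, chr2:151741261-151741560, minus strand: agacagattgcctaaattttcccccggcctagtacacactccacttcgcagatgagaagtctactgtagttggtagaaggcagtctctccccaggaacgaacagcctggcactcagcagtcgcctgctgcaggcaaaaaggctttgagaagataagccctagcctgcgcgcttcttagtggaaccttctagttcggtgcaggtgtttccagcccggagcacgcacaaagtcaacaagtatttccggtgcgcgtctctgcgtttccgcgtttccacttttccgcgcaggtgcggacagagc
Psmb6, chr11:70525107-70525406, plus strand: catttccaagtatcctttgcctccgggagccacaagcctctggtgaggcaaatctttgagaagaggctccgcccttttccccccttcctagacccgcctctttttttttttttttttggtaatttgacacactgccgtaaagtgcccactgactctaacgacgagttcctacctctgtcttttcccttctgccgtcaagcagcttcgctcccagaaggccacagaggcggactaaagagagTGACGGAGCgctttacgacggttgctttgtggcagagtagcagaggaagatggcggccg
Psme4, chr11:30771525-30771824, plus strand: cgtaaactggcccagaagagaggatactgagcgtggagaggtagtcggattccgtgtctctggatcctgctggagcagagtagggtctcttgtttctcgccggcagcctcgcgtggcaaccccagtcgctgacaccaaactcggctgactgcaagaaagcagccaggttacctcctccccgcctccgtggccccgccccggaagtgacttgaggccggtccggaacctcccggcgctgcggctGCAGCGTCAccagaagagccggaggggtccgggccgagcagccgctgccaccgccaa
The match starts at base 242 of the Psmb6 window and base 244 of the Psme4 window, close to the transcription start. Of these 4 genes Psme1 differed by -0.31, Psmf1 by 0.28, Psmb6 by -0.032 and Psme4 by 0.10, and a match or its lack is a description of the letters only.

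Single probe sets, which cover exons or parts of them, were tested because a gene mean can hide a change in one exon. At an adjusted p under 0.05, 0 of 576 member probe sets were called by limma, against 1.9% of all probe sets (0 higher, against 1.75%, and 0 lower, against 0.15%), and the lowest adjusted p was 0.11, for a probe set of Psmc2. At an unadjusted p under 0.05 there were 52 (9.03%), against 11.9%, and in 132 (22.9%) the groups did not overlap, against 19.2%. Member probe sets differed by -1.37 to 1.60. The lowest value belonged to Psmb2 probe set 17418634, with 5.47, 5.22 and 4.08 in Mgat1 cKO cells and 6.10, 6.46 and 6.31 in control cells (adjusted p = 0.21). The highest belonged to Psmc2 probe set 17435148, with 6.65, 5.53 and 7.01 in Mgat1 cKO cells and 4.76, 5.69 and 3.95 in control cells (adjusted p = 0.34). Aliquots of 1 pool differed by over 1 log2 unit on both, and the groups of the Psmc2 probe set overlapped.

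Whether a probe set differed from the rest of its gene was tested with diffSplice of limma, which pools the spread over the probe sets of a gene. It called 10 of 576 member probe sets (1.74%), against 1.94% of all, and 7 of 49 genes (14.3%), against 11.7%. The called probe sets belonged to Psmb7 (2), Psmf1, Psmc2, Psmd5, Psmb2, Psmd6, Psmc3ip, Psmd1 and Psmg2. The spread was unequal between probe sets, with a median residual SD of 0.40 for dim and 0.13 for other member probe sets. With dim probe sets left out diffSplice still called 9 member probe sets, with 2.07% of all called. With probe sets weighted by intensity it called 7, with 1.56% of all called. When each probe set kept its own variance, 0 of 576 were called, against 0.308% of all (lowest adjusted p = 0.10, Psme1 probe set 17300550), with 36 (6.25%) at an unadjusted p under 0.05, against 8.65%. The probe sets of Psmb7 lay on both sides: 17384698 had 8.30, 8.01 and 7.75 in Mgat1 cKO cells and 8.80, 8.73 and 8.80 in control cells, and 17384704 had 6.25, 6.25 and 6.46 in Mgat1 cKO cells and 5.98, 5.54 and 5.58 in control cells. Both kept the groups apart while the other 9 probe sets of the gene differed by -0.072 to 0.20.

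In Psmf1 1 probe set stood out. Its probe set 17392879 had 6.74, 7.02 and 6.60 in Mgat1 cKO cells and 5.95, 4.78 and 5.50 in control cells, a difference of 1.38 (adjusted p = 0.13), and 3 others that lay above control on all arrays differed by 0.37 to 0.53.

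**Figure D4:**
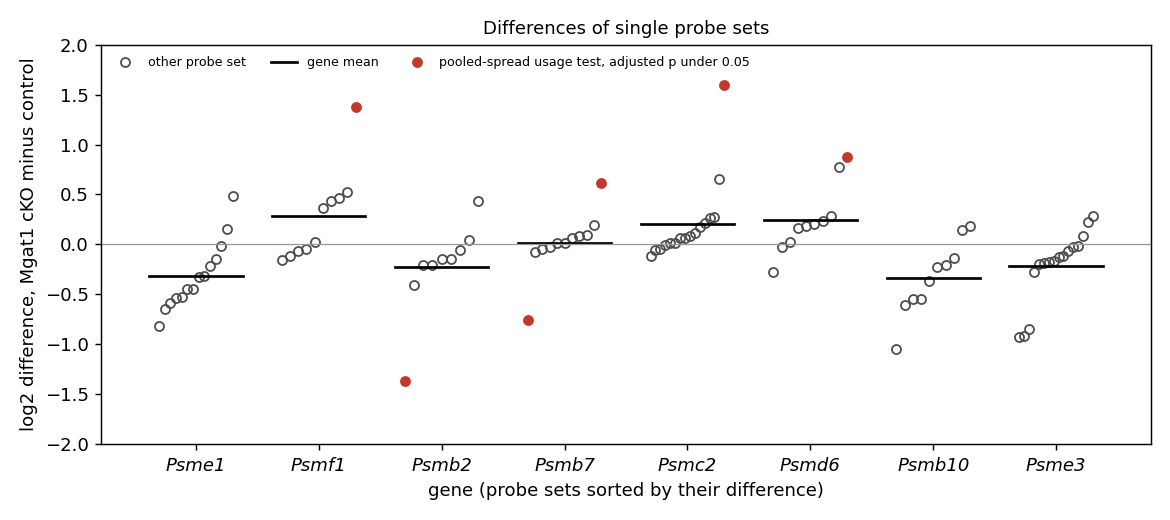
Log2 difference, Mgat1 cKO minus control (y axis), of each probe set (points) of 8 proteasome genes (x axis, sorted within a gene), with the gene mean as a black line. Filled red points passed the pooled-spread test of probe set usage, and 0 did so with their own variance; Psmf1 reaches 1.38 at 1 probe set, whereas 12 of the 14 points of Psme1 lie below 0.

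Of the genes that work with the proteasome, 4 lists were counted, in which 5 genes were called. Of all genes, 8.41% were called (6.07% higher and 2.35% lower), and the median difference of all genes was -0.053. Of 10 measured proteasome components without a Psm symbol (receptors, deubiquitinases, assembly factors) 0 were called by limma, with a median difference of -0.042 and 3 at an unadjusted p under 0.05, which 24.1% of all genes reached. These were Usp14, a deubiquitinase of the base (-0.27, adjusted p = 0.051), Pomp, the maturation factor of the core (-0.30, adjusted p = 0.18), and Ecpas, a scaffold measured under its older symbol AI314180 (-0.20, adjusted p = 0.13). Of 10 genes of ubiquitin activation, shuttles and p97, only Ddi1 was called. Ddi1, whose yeast counterpart carries ubiquitinated proteins to the proteasome, had 8.94, 8.97 and 8.64 in Mgat1 cKO cells and 6.60, 6.71 and 6.77 in control cells. No array came near the other group, and the difference was 2.16 (SE 0.10, adjusted p = 2.9e-06). It stood beside the higher spermatid markers given above, whose part in it was not tested. Its relative Ddi2 differed by 0.13 (adjusted p = 0.29).

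Of 6 genes of the transcriptional control of the proteasome, 0 were higher, against 6.07% of all genes, and Nfe2l2 was lower, against 2.35%. Nfe2l2, the gene of the stress factor NRF2, had 8.42, 8.34 and 8.30 in Mgat1 cKO cells and 8.57, 8.66 and 8.60 in control cells (difference -0.26, SE 0.064, adjusted p = 0.047). The groups were apart, but the call ended when any 1 array was left out (-0.29 to -0.23, adjusted p = 0.058 to 0.15), with analysis of variance (adjusted p = 0.062), with the median of probe sets (-0.25, adjusted p = 0.25) and with repeated quantile normalization (-0.25, adjusted p = 0.051). Nfe2l1, the factor that raises proteasome genes when the proteasome is inhibited, differed by -0.094 (adjusted p = 0.40).

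Of 13 genes of antigen processing and interferon response, 2 were lower, against 2.35% of all genes, and 1 was higher, against 6.07%. The median difference of the list was -0.17, and that of all genes was -0.053. The class I histocompatibility genes H2-K1 and H2-D1, whose products present peptides made by the proteasome, were lower. H2-K1 had 7.97, 7.77 and 7.88 in Mgat1 cKO cells and 8.36, 8.46 and 8.46 in control cells (difference -0.55, adjusted p = 0.0018). H2-D1 had 7.29, 7.38 and 7.40 in Mgat1 cKO cells and 8.10, 8.10 and 7.98 in control cells (difference -0.70, adjusted p = 0.00022). Ifit1, an interferon-induced gene, was higher, at 6.17, 5.92 and 6.22 in Mgat1 cKO cells and 5.61, 5.45 and 5.65 in control cells (difference 0.53, adjusted p = 0.012). The call of Ifit1 ended with analysis of variance (adjusted p = 0.089), with the median of probe sets (0.36, adjusted p = 0.13) and without Mgat1 cKO array 1 (0.50, adjusted p = 0.051). At an unadjusted p under 0.05 from limma, Tap1 (-0.17), Tapbp (-0.25), Erap1 (-0.23), Irf1 (-0.36) and Irf8 (-0.34) were lower too, without a call. Ifit1 was the only gene of the list higher at that level, which 9.55% of all genes reached as higher and 14.5% as lower. Isg15 (0.086) and Gbp2 (0.0085) lay above 0 with overlapping groups. The list thus leaned lower, with Ifit1 as an exception, while 64.5% of all genes also differed by less than 0. Of the immune catalytic subunits, Psmb10 at -0.33, Psmb8 at 0.032 and Psmb9 at 0.089, 0 were called. Of the PA28 genes, Psme1 was called lower at -0.31 and Psme2 at -0.19 was not called. Leukocyte markers were lower like Psme1, H2-K1 and H2-D1, at summed signals of 998 to 1048 in Mgat1 cKO arrays and 1174 to 1211 in control arrays. The summed signals of Sertoli, Leydig, stromal, epididymal and spermatogonial markers given above were lower as well. The part of any of these cell types in these differences was not tested.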

How the data were processed

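RNA of 23 dpp germ cells was measured on 3 Mgat1 cKO and 3 control arrays. The authors background-corrected, normalized and summarized them by RMA in Affymetrix Expression Console (versions not given in the sources used here), and the deposited values are log2 signals of exon level probe sets, used as they stand. The array's genome build is not given in the sources used here. Probe sets with 1 gene symbol (233753) were averaged per gene. Those with several (5139) or no symbol (30859) in the platform annotation were not used. The result was 23152 genes, each with 8 probe sets at the median.

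Genes and probe sets were tested with limma 3.58.1 (lmFit and eBayes, no trend; R 4.3.3), adjusted by Benjamini-Hochberg over the whole table, and called at an adjusted p under 0.05. All adjusted p-values are from limma unless analysis of variance, the methods' test, is named. An exact permutation test of 3 against 3 arrays cannot give p under 0.1. Usage of probe sets was tested with diffSplice. In a test on simulated data diffSplice called unchanged probe sets, so a test with the variance of each probe set was added after seeing the data. Dim means a mean in the lowest 25% of probe sets (log2 5.24). The scripts were tested on simulated data. The number of arrays limits precision. Plots used matplotlib 3.10.9 under Python 3.11.15.

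Members and the 13 gene lists (128 genes, of which 10 were not analysed here) were chosen with earlier results of these data known. The text names Mgat1, called members, the 5 largest rises and falls, tissue and immune forms, Psmf1, the members of highest and lowest mean signal over the 6 arrays (Psmd8 and Psmb11), and called genes of the pathway lists. Other members were named to complete a role, after their values were seen. Cross-hybridization was not examined. Of the members 4 (Psma5, Psmb5, Psmb6 and Psmb7) have a pseudogene or copy by symbol in RefSeq.

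Alternatives were an intensity trend, analysis of variance, the replicate block, medians over arrays, the median of probe sets, dim probe sets left out, centred arrays, repeated quantile normalization, genes with 3 or more probe sets, thresholds of 1.5-fold and 2-fold, and each array left out.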

Additional observations from a re-analysis of the deposited data

How the results depend on the processing

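Deposited values put 1 member higher and 1 lower. Analysis of variance put 1 member higher (Psmg2, not Psmf1) and 2 lower (Psme1 and Psmd7), with 6.27% of all genes called. An intensity trend put 3 higher (Psmd6, Psmf1 and Psmc2) and 6 lower (Psme3, Psmc1, Psme1, Psmb1, Psmb2 and Psmd7), with 13.2% called. Arrays centred on the median of genes gave 0 higher and 4 lower (Psmc1, Psme1, Psmb2 and Psmd7), with 12.4% called. The median of probe sets gave 0 and 0 (4.86% called), as did over 1.5-fold (4.16%) and over 2-fold (2.57%). Leaving out 1 array gave 0 to 0 higher and 0 to 1 lower, with 5.75% to 6.58% of all genes called. The share of the 49 members called thus lay above that of all genes with the trend only. It lay below with the other settings above, as in the main test (4.08% against 8.41%). Centring moved the median of the members to -0.097 (all genes -0.10), and leaving out an array kept it between -0.065 and -0.041. Of the 576 single probe sets of members, 2 were higher and 3 lower with the trend, with 2.6% of all probe sets called. Without an array 0 to 1 were called in each direction, with 1.24% to 1.35% of all probe sets called. Of the alternatives added after seeing the data, leaving out the probe sets that diffSplice called gave 0 higher and 1 lower. By construction this brings a gene's probe sets closer together. Probe set usage with own variance gave 0, also with the replicate block added (0). The diffSplice test gave 10 with the replicate block (1.58% of all probe sets called), 9 with dim probe sets left out (2.07%) and 7 with weights by intensity (1.56%). Without an array diffSplice gave 8 to 14, with 1.48% to 1.81% of all called. The cause of these shifts was not tested.

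Mgat1 changed sign with medians (0.020), the median of probe sets (0.12), dim probe sets left out (0.053) and arrays left out (-0.091 to 0.082). So did Psmb8 with the median of probe sets (-0.049), dim probe sets left out (-0.034), centring (-0.017) and arrays left out (-0.0058 to 0.094), Psmb2 (0.083) and Psma8 (0.0034) with the median of probe sets, Psmb9 with dim probe sets left out (-0.0042) and Psmd8 with centring (-0.0048).

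Arrays with the same number did not deviate together (r = -0.023, -0.064 and -0.022 over genes). Unlike numbers gave r of -0.033 to 0.056. No pairing by number was thus seen, but values from 3 arrays per genotype cannot exclude it. With the replicate block 0 members were higher and 0 lower, against 6.19% of all genes called, and the adjusted p was 0.053 for Psme1, 0.077 for Psmf1 and 0.12 for Nfe2l2. The block called 0 member probe sets, against 0.961% of all probe sets.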

Other observations

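Probe sets that carry the symbol of a member and of a second gene entered no comparison above. The 4 shared by Armc9 and Psmd1 and the 4 shared by AY074887 and Psma4 differed by -0.55 to 0.089 between Mgat1 cKO and control, with adjusted p-values of limma from 0.50 to 0.96.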
